A study of Stenocereus queretaroensis with 6 samples.

Results

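The transcripts described here encode structural and glycosylated proteins of the plant cell wall. They are the assembled clusters whose Swiss-Prot description names an arabinogalactan protein, an extensin, a proline-rich protein or cell wall protein, a glycine-rich cell wall protein, a germin-like protein or a BURP domain protein. The rule took 95 of the 170970 clusters in the assembly, which fall on 40 distinct Swiss-Prot proteins, and no cluster had a glycine-rich cell wall protein as its hit. Families were formed from the descriptions. There were 28 fasciclin-like arabinogalactan clusters, 3 other arabinogalactan clusters, 13 leucine-rich repeat extensin (LRR-extensin) clusters, 1 further extensin cluster, 28 proline-rich clusters, 15 germin-like clusters and 7 BURP clusters. Of the 95 clusters, 73 also carried a name matching the same rule in the NR protein database. The proline-rich family held 8 clusters whose hit is a human protein, namely PRCC, PRR36 and BAG6, which are not wall proteins in that species, and the label does not describe them.

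The columnar cactus *Stenocereus queretaroensis* supplied the cells, kept in suspension. The cells had been grown on MS medium, a mineral medium for plant tissue culture, with 3% sucrose in 3 libraries (titled SqY) and with 8% sucrose in 3 libraries (titled SqR). The labels name no strain, culture age or time on the medium, and suspension cells have no defining marker list to check the label against. Whether the libraries stand for separate cultures is not stated, and the spread behind each p-value is that between these samples alone and may be technical.

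Arabinogalactan proteins carry large branched sugar chains and are often held at the plasma membrane by a lipid anchor. Extensins and proline-rich proteins are rod-like proteins that become cross-linked into the wall. LRR-extensins join a receptor-like domain to an extensin domain, and in Arabidopsis they bind signalling peptides that report on the state of the wall. Germin-like proteins are cupin-fold proteins of the wall space, some with superoxide dismutase activity. BURP proteins are secreted plant proteins, of which RD22 of Arabidopsis is known for its induction by drought and abscisic acid.

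Libraries held 35475940 to 41146944 expected counts, which are reads assigned to clusters by estimation. A count of at least 1 was seen for 118274 to 122161 clusters at 3% sucrose and for 127517 to 129718 at 8% sucrose. Levels are given in CPM, read counts scaled to a common depth on TMM-adjusted library sizes, on which 3 counts correspond to 0.0776 to 0.0883 CPM. Marker lists of other cell types also differed between the media. Green cell markers (41 clusters, 27 tested, 20 that fell and 1 that rose) had sums between 885.9 and 924.6 CPM at 3% and between 43.64 and 45.16 CPM at 8% sucrose. Tracheary element markers (19 clusters, 8 tested, 4 that fell and 2 that rose) summed to 79.94 to 88.95 CPM and to 23.03 to 27.49 CPM. Epidermis markers (26 clusters, 13 tested, 4 that fell and 3 that rose) summed to 15.68 to 16.33 CPM and to 10.87 to 13.13 CPM. Of the tested clusters 74.1% fell for green cells, 50.0% for tracheary elements and 30.8% for epidermis, beside 25.6% of all tested clusters. The shares that rose were 3.7%, 25.0% and 23.1%, beside 29.1%. The epidermis shares were thus near the background, and its tested clusters had a median log2 fold change (8% over 3% sucrose) of 1.35 despite the lower sum. The clusters at 0 in every library were none for green cells, none for tracheary elements and 1 for epidermis. Their part in the results below was not tested.

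By family sums, cells on 8% sucrose had less RNA for proline-rich proteins, arabinogalactan proteins and extensins, and more for germin-like and BURP proteins. All members together summed to 2305, 2487 and 2241 CPM at 3% sucrose and to 771.9, 769.1 and 701.3 CPM at 8% sucrose, 3.14-fold lower. Every library at 3% sucrose lay above every library at 8% sucrose. The proline-rich sum went from 1410 ± 58.5 to 316.0 ± 9.8 CPM (SD, n = 3 each), 4.46-fold lower. Its most abundant cluster held 55.3% of this sum at 3% sucrose and 44.3% at 8% sucrose. The sum of fasciclin-like arabinogalactan clusters was 676.4 ± 56.1 against 239.9 ± 16.8 CPM (SD, n = 3 each), 2.82-fold lower. The LRR-extensin sum was 127.8 ± 22.1 against 23.1 ± 3.3 CPM (SD, n = 3 each), 5.52-fold lower. In contrast, the germin-like sum was 69.9 ± 7.2 CPM at 3% and 131.1 ± 15.2 CPM at 8% sucrose (SD, n = 3 each), 1.88-fold higher. Most of that difference lay in the hit to germin-like protein 12-1, described below. The BURP sum was 5.88 ± 0.57 against 17.98 ± 1.88 CPM (SD, n = 3 each), 3.06-fold higher. The libraries of the media did not overlap for any of these sums or for the sum of the other arabinogalactan clusters. For each of them p was 0.1 (exact permutation test, two-sided), the smallest value that 3 libraries against 3 allow. In these bulk samples fewer cells of a type and less RNA per cell cannot be told apart.

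**Figure D1:**
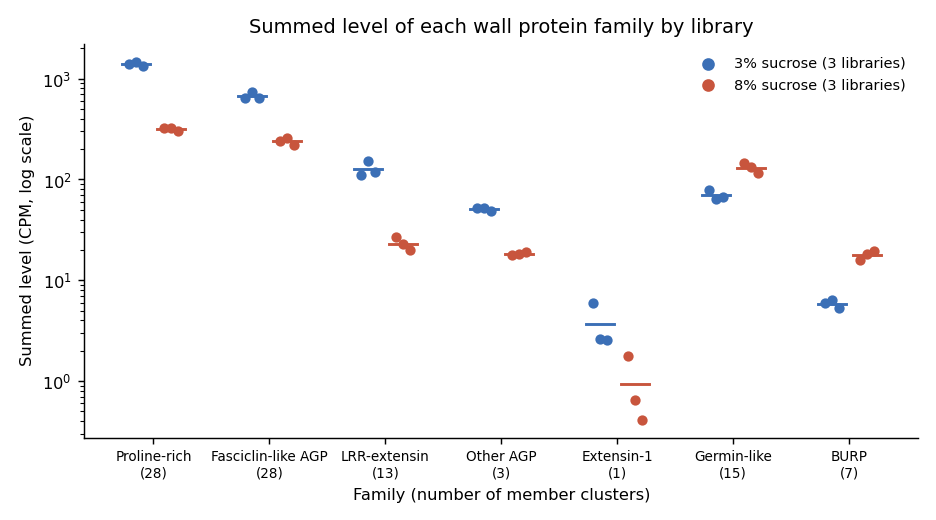
Summed level of each family in CPM (log scale), with 1 point per library, a bar at the mean of the 3 libraries of a medium, and the number of member clusters in brackets. Proline-rich, arabinogalactan and extensin sums were lower at 8% sucrose, and germin-like and BURP sums were higher.

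Counted cluster by cluster, 26 members fell and 18 rose, while 23 were tested without a call. The test was the quasi-likelihood test of edgeR, and a call needed a p under 0.05 after Benjamini-Hochberg adjustment over all 85038 clusters tested. The remaining 28 had too few counts to be tested, among them 3 with a count of 0 in every library. Among all tested clusters 25.6% fell and 29.1% rose (54.6% in either direction), against 38.8% and 26.9% of the 67 members tested. The share of members that rose was thus near the background, and that of members that fell was higher, a difference that was not tested. The median log2 fold change of the tested members was -0.37, beside 0.19 for all tested clusters. Setting the 7 members at 0 throughout a medium to their bound left each on its side of the median, so this could not move it. With hits limited to an E-value of at most 1e-20, 19 members fell and 10 rose. Values of the media did not overlap for 30 tested members with 3% above and for 22 with 8% above, or 44.8% and 32.8%, against 30.9% and 36.7% of all tested clusters. The lower sums rest on few abundant members. The 7 members with a mean of at least 50 CPM held 83.5% of the summed level at 3% sucrose and 61.7% at 8% sucrose. Of the 16 members with a mean of at least 10 CPM, 11 fell and 3 rose, where 56.0% of all clusters of that abundance fell and 28.5% rose. Of the 79 members under 10 CPM 51 were tested, and 15 of these fell and 15 rose, 29.4% each, where 19.3% and 29.2% of all tested clusters of that abundance did. The authors' deposited table calls 25 members lower and 20 higher at 8% sucrose, and 41 of these calls have the direction of a call made here.

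**Figure D2:**
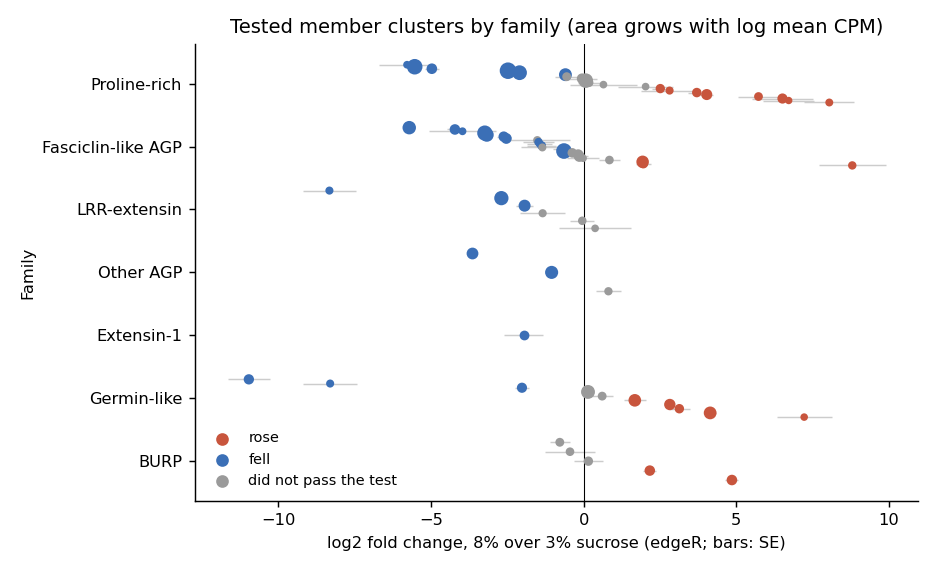
Log2 fold change (8% over 3% sucrose) of the 67 tested members by family, with SE bars, coloured by the outcome of edgeR's test. Symbol area grows with the log of the mean CPM, and for the 7 members with a count of 0 in every library of a medium the fitted value is not a measured fold.

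Of the 28 proline-rich clusters 8 rose, 6 fell, 6 did not pass the test and 8 had too few counts. These were 40.0% that rose and 30.0% that fell of the 20 tested, beside 29.1% and 25.6% of all tested clusters. Their median log2 fold change was 0.41, so the lower sum rests on abundant clusters. Within the family, hits to the 14 kDa protein DC2.15 took the most counts, on a scale not corrected for length. This protein of carrot is known from cultures that begin somatic embryogenesis, and joins a proline-rich stretch to a cysteine-rich domain like that of lipid transfer proteins. Its most abundant cluster (Cluster-2051.99154, 3905 bp) stood at 798.0, 790.0 and 750.4 CPM at 3% sucrose and at 138.5, 140.4 and 141.0 CPM at 8% sucrose. It fell 5.57-fold (log2 fold change -2.48 ± 0.05 SE, edgeR adjusted p = 4.66e-07). Another long cluster (Cluster-2051.83179, 3736 bp) fell from 160.5, 149.6 and 147.0 CPM to 38.15, 36.88 and 31.55 CPM (log2 fold change -2.10 ± 0.09 SE, edgeR adjusted p = 4.66e-06). Both were far apart between the media and tight within them. In each of these clusters the coding part listed in the deposited table spans 474 bases, 12.1% and 12.7% of the length, so most of their length lies outside the stretch listed as coding.

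The 7 short clusters of the same hit (514 to 841 bp) went mostly the other way. Of these, 5 rose, 1 fell and 1 had too few counts to be tested. Cluster-12313.0, which the NR database names putative lipid-binding protein AIR1, a family known from auxin-treated roots, stood at 0.765, 0.706 and 0.521 CPM at 3% sucrose. At 8% sucrose it stood at 9.785, 11.78 and 11.2 CPM, 16.4-fold higher (log2 fold change 4.04 ± 0.21 SE, edgeR adjusted p = 1.07e-05). The groups did not overlap. Cluster-28333.0, also named AIR1, rose from 0.267 ± 0.054 to 3.53 ± 0.13 CPM (SD, n = 3 each; edgeR adjusted p = 7.27e-05). A further AIR1 cluster, Cluster-5106.0, rose from 0.0357 ± 0.0309 CPM, under the level of 3 counts, to 2.11 ± 0.25 CPM (SD, n = 3 each; edgeR adjusted p = 0.000531). Cluster-15434.0 was at 0 throughout the 3% libraries and at 0.891 ± 0.180 CPM (SD, n = 3) at 8% sucrose, at least 10.7-fold higher against 3 counts per library. Cluster-9981.0, likewise at 0 at 3% sucrose, was at least 4.25-fold higher. Cluster-1996.0 was the short cluster that fell, from 0.666 ± 0.256 to 0.00862 ± 0.0149 CPM (SD, n = 3 each), with 1 count left in 1 library at 8% sucrose. In CPM, which is not corrected for length, the 2 long clusters held 99.8% of the hit's sum at 3% sucrose and 90.8% at 8%. The CPM sum over the 9 clusters therefore followed them, from 933.7 ± 31.6 to 193.3 ± 2.9 CPM (SD, n = 3 each). Per length (the authors' FPKM), the hit summed to a mean of 248.6 at 3% and 111.3 at 8% sucrose. At 8% sucrose the short Cluster-12313.0 stood at 34.44, 41.44 and 40.43 FPKM. The long clusters stood there at 39.93, 39.93 and 41.36 FPKM (Cluster-2051.99154) and at 11.54, 11.01 and 9.71 FPKM (Cluster-2051.83179).

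**Figure D3:**
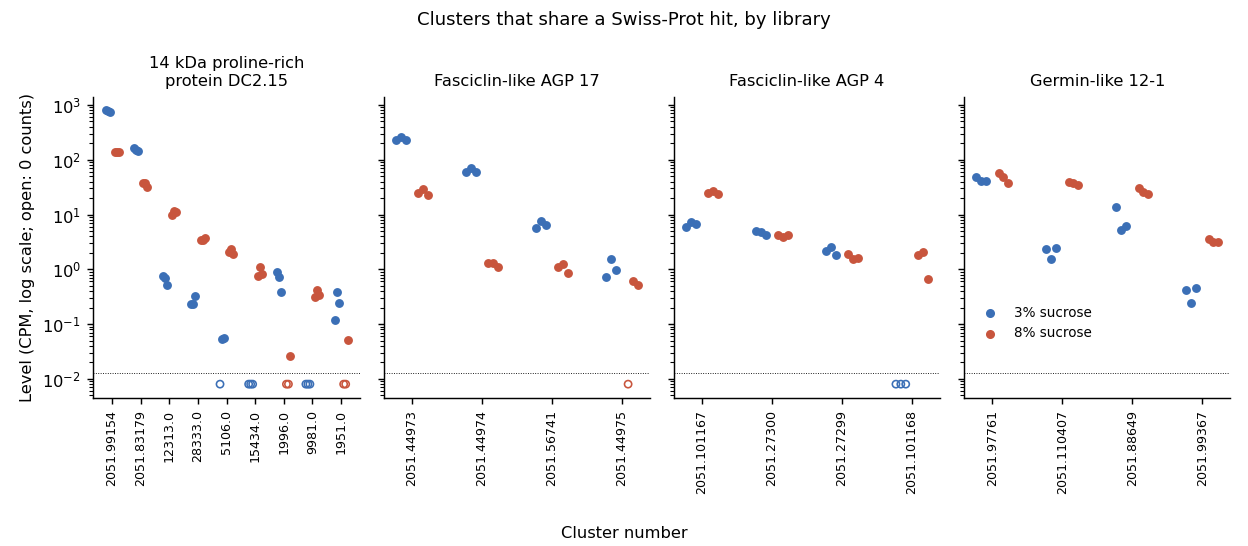
Level in CPM (log scale) of every cluster that shares a hit, for DC2.15, fasciclin-like arabinogalactan proteins 17 and 4, and germin-like protein 12-1, with 1 point per library and open points below the dotted line for a count of 0. Most short DC2.15 clusters were higher at 8% sucrose while the 2 long ones were lower, and 3 of the 4 clusters of fasciclin-like protein 17 fell.

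Proline-rich protein 3, an Arabidopsis root protein that gave 1 abundant cluster here, showed the largest fall among members with a mean of at least 50 CPM. Cluster-2051.111054 stood at 334.4, 400.1 and 340.1 CPM at 3% sucrose and at 9.008, 7.217 and 6.931 CPM at 8% sucrose. It fell 46.4-fold (log2 fold change -5.54 ± 0.14 SE, edgeR adjusted p = 9.22e-07). The other 3 clusters of this hit had mean levels of 0.027 to 0.163 CPM in each medium, except for 0 counts at 3% sucrose in Cluster-26500.0, and were not tested. The 36.4 kDa proline-rich protein, known from tomato fruit, did not share this fall in its main cluster. Cluster-2051.74144 stood at 75.6, 84.93 and 70.09 CPM at 3% sucrose and at 83.51, 83.4 and 75.14 CPM at 8% sucrose. The groups overlapped, and the log2 fold change was 0.07 ± 0.09 (SE, edgeR adjusted p = 0.527). A minor cluster of the same hit, Cluster-2051.4048, fell from 8.12 ± 0.37 to 0.256 ± 0.047 CPM (SD, n = 3 each) (log2 fold change -4.97 ± 0.22 SE, edgeR adjusted p = 5.85e-06). Proline-rich protein 1 (Cluster-5340.0) stood at 0.972 ± 0.212 and 1.10 ± 0.22 CPM (SD, n = 3 each) and did not pass the test. The repetitive proline-rich cell wall protein 1 of soybean matched 1 cluster, with too few counts to be tested.

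Of the 8 clusters with a human hit, 3 rose, 1 fell, 3 did not pass the test and 1 was not tested. These were 42.9% that rose and 14.3% that fell of the 7 tested, beside 29.1% and 25.6% of all tested clusters. PRCC, a nuclear protein in humans, had 1 cluster (Cluster-2051.70526), which fell from 25.21 ± 0.65 to 16.68 ± 0.77 CPM (SD, n = 3 each). A PRR36 cluster (Cluster-2051.112391) had 0, 0 and 0.184 CPM at 3% sucrose and 9.587, 3.953 and 5.053 CPM at 8% sucrose. It rose with an edgeR adjusted p of 0.00169, and the libraries at 8% sucrose varied widely among themselves. Its neighbour in the assembly, Cluster-2051.112392, which is outside the set, fell from 13.09 to 0.182 CPM. Cluster-2051.112389 stood at 13.89 and 15.9 CPM and did not pass the test. Whether these clusters share reads was not tested, so the division between them is uncertain. A companion cluster of the PRR36 hit (Cluster-2051.118712) stood at 3.87 ± 0.61 and 3.73 ± 2.55 CPM (SD, n = 3 each) and did not pass. BAG6, which in humans escorts hydrophobic proteins to the proteasome, had 5 clusters that summed to 1.00 ± 0.31 CPM at 3% and 4.93 ± 0.55 CPM at 8% sucrose (SD, n = 3 each). Without these 8 clusters, the members summed to 2315 ± 128 and 715.9 ± 38.2 CPM (SD, n = 3 each). Of the 60 then tested 25 fell (41.7%) and 15 rose (25.0%).

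Fasciclin-like arabinogalactan proteins are known to carry cell adhesion domains beside their sugar-bearing stretches. The deposited Pfam column names a fasciclin domain for 0 of the 28 clusters here. Of their 28 clusters 11 fell, 3 rose, 8 did not pass the test and 6 had too few counts, with a median log2 fold change of -1.36 over the 22 tested. These were 50.0% that fell and 13.6% that rose of those tested, beside 25.6% and 29.1% of all tested clusters, a difference that was not tested. The hit to family member 17 gave the largest falls among the abundant clusters. Cluster-2051.44973 stood at 233.3, 258.7 and 232.0 CPM at 3% sucrose and at 25.1, 28.87 and 22.77 CPM at 8% sucrose. It fell 9.43-fold (log2 fold change -3.24 ± 0.10 SE, edgeR adjusted p = 1.86e-06). Its neighbour in the assembly, Cluster-2051.44974, stood at 59.83, 71.14 and 60.48 CPM at 3% sucrose and at 1.277, 1.283 and 1.086 CPM at 8% sucrose. It fell 52.5-fold (log2 fold change -5.71 ± 0.12 SE, edgeR adjusted p = 6.32e-07). Both kept the media far apart, and they may share reads, so the division between them is uncertain. Their sum with the other 2 clusters of the hit went from 312.7 ± 22.7 to 28.2 ± 3.4 CPM (SD, n = 3 each), 11.1-fold lower.

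Family member 1 also fell, with Cluster-2051.88624 at 68.22, 86.22 and 74.91 CPM at 3% sucrose and at 7.636, 9.595 and 8.224 CPM at 8% sucrose (9.01-fold lower, log2 fold change -3.17 ± 0.13 SE, edgeR adjusted p = 4.19e-06). The main cluster of member 2 (Cluster-2051.2882) fell from 7.77 ± 0.28 to 0.416 ± 0.140 CPM (SD, n = 3 each; edgeR adjusted p = 3.06e-05). The cluster of member 6 (Cluster-2051.5231) fell from 8.27 ± 0.31 to 1.43 ± 0.12 CPM (SD, n = 3 each; edgeR adjusted p = 2.67e-05). Each of these falls left the media without overlap. Member 8 (Cluster-2051.49374) changed much less, from 227.2, 270.7 and 230.8 CPM to 158.3, 163.8 and 144.5 CPM. This 1.56-fold fall passed the test (log2 fold change -0.64 ± 0.09 SE, edgeR adjusted p = 0.000933). At 8% sucrose this cluster held 64.85% of the summed level of the family, against 35.9% at 3% sucrose.

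Family member 4, which in Arabidopsis is known as SOS5 from a mutant whose roots swell on salt, rose instead. Cluster-2051.101167 stood at 5.942, 7.237 and 6.745 CPM at 3% sucrose and at 24.74, 27.3 and 24.15 CPM at 8% sucrose. It rose 3.82-fold (log2 fold change 1.93 ± 0.11 SE, edgeR adjusted p = 1.76e-05), with no overlap. Cluster-2051.101168 was at 0 throughout the 3% libraries and at 1.795, 2.091 and 0.654 CPM in those on 8% sucrose, at least 18.2-fold higher against 3 counts per library. The other 2 clusters of this hit, Cluster-2051.27300 and Cluster-2051.27299, overlapped between the media and did not pass the test. Member 4 summed to 13.44 ± 1.01 CPM at 3% sucrose and to 32.68 ± 2.11 CPM at 8% sucrose (SD, n = 3 each). The third cluster that rose, with a hit to the putative family member 20 (Cluster-2051.22237), went from 0.816 ± 0.086 to 3.18 ± 0.41 CPM (SD, n = 3 each). Member 21 (Cluster-2051.58878) stood at 7.619, 4.572 and 3.948 CPM at 3% sucrose and at 5.462, 5.194 and 3.983 CPM at 8% sucrose, which overlapped (edgeR adjusted p = 0.703). The 3 clusters of member 7 did not pass the test. Of the 11 falls in this family, 4 were lost on leaving out at least 1 library, and these clusters had mean counts of 14.2 to 40.3.

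Arabinogalactan peptides are very short members of the same class. Arabinogalactan peptide 16 (Cluster-2051.27376) stood at 18.5, 17.48 and 16.81 CPM at 3% sucrose and at 1.274, 1.609 and 1.354 CPM at 8% sucrose. It fell 12.5-fold (log2 fold change -3.64 ± 0.14 SE, edgeR adjusted p = 3.6e-06). Arabinogalactan peptide 20 (Cluster-2051.24836) stood at 33.48, 34.41 and 31.42 CPM and at 15.56, 15.58 and 16.89 CPM. It fell 2.07-fold (log2 fold change -1.05 ± 0.08 SE, edgeR adjusted p = 5.19e-05), so both peptides were lower in every library at 8% sucrose. Classical arabinogalactan protein 26 (Cluster-2051.12139) stood at 0.530, 0.340 and 0.658 CPM and at 0.984, 0.929 and 0.776 CPM. Its groups did not overlap, yet it did not pass the test (log2 fold change 0.81 ± 0.41 SE, edgeR adjusted p = 0.135).

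The deposited Pfam column names a leucine-rich repeat for 11 of the 13 LRR-extensin clusters. Among LRR-extensins, 3 of 13 clusters fell, none rose, 3 did not pass the test and 7 had too few counts. Of the 6 tested 50.0% fell and 0.0% rose, beside 25.6% and 29.1% of all tested clusters. The difference was not tested, and 6 clusters are few for such shares. A call of a rise went to 0 of the 6 tested by edgeR, by DESeq2 and without the low-count filter, and 0 of the 6 had a positive change with an unadjusted p under 0.05. LRX4, one of the vegetative members that in Arabidopsis act with a receptor kinase in sensing the wall, had the abundant cluster. Cluster-2051.36948 stood at 93.1, 125.4 and 101.0 CPM at 3% sucrose and at 18.64, 15.66 and 15.03 CPM at 8% sucrose. It fell 6.48-fold (log2 fold change -2.70 ± 0.14 SE, edgeR adjusted p = 1.25e-05). LRX2, known from root hairs of Arabidopsis, had 1 cluster (Cluster-2051.72016) at 14.18, 24.09 and 15.03 CPM and at 5.591, 4.811 and 3.543 CPM. It fell 3.82-fold (log2 fold change -1.93 ± 0.27 SE, edgeR adjusted p = 0.00108). For both, the lowest library at 3% sucrose lay above the highest at 8% sucrose. A cluster with a hit to LRX6 (Cluster-2051.129576) had 1.358, 1.144 and 0.750 CPM at 3% sucrose and 0 counts in every library at 8% sucrose, at least 13.7-fold lower against 3 counts per library. The sum over the 5 clusters of the LRX6 hit did not pass the test. LRX3 (Cluster-6491.0) stood at 0.865 ± 0.156 and 0.842 ± 0.282 CPM (SD, n = 3 each).

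Extensin-1, a basic structural protein that is cross-linked into the wall, had 1 cluster (Cluster-2051.36970). It stood at 5.972, 2.587 and 2.55 CPM at 3% sucrose and at 1.76, 0.656 and 0.414 CPM at 8% sucrose. Replicate 1 was the highest library in each medium. The cluster fell (log2 fold change -1.97 ± 0.63 SE, edgeR adjusted p = 0.0347). This call was lost without replicate 1 at 3% sucrose, without replicate 2 at 8% sucrose or without replicate 3 at 8% sucrose, and over the 6 libraries left out in turn the edgeR adjusted p ran from 0.0112 to 0.111.

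Germin-like proteins went both ways, with 5 of 15 clusters that rose, 3 that fell, 2 tested without a call and 5 with too few counts. Of the 10 tested clusters 50.0% rose and 30.0% fell, beside 29.1% and 25.6% of all tested clusters, a difference that was not tested. The deposited Pfam column names a cupin domain for 13 of the 15 clusters. The hit to germin-like protein 12-1 of rice had 4 clusters, and 3 of them rose. Cluster-2051.110407 stood at 2.324, 1.515 and 2.495 CPM at 3% sucrose and at 38.8, 38.24 and 35.15 CPM at 8% sucrose. It rose 17.7-fold (log2 fold change 4.15 ± 0.19 SE, edgeR adjusted p = 6.99e-06). Cluster-2051.88649 stood at 13.58, 5.221 and 6.048 CPM at 3% sucrose and at 29.94, 26.11 and 23.41 CPM at 8% sucrose, and rose with an edgeR adjusted p of 0.00748. Its first library at 3% sucrose stood above the other two, and the media still did not overlap. The most abundant cluster of the hit (Cluster-2051.97761) stood at 47.57, 41.7 and 41.04 CPM and at 56.67, 49.26 and 38.06 CPM, which overlapped (edgeR adjusted p = 0.445). Summed over the hit, the level went from 54.2 ± 8.4 to 115.2 ± 14.7 CPM (SD, n = 3 each). The family sum went from 69.9 to 131.1 CPM, so most of its rise lay in this hit. Of the 5 tested germin-like hits 2 rose (40.0%) and 3 fell (60.0%), beside 39.9% and 39.7% of all tested hits.

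Germin-like protein 5-1 (Cluster-2051.109911) stood at 1.817, 1.594 and 1.886 CPM at 3% sucrose and at 13.5, 12.22 and 11.95 CPM at 8% sucrose. It rose 7.11-fold (log2 fold change 2.83 ± 0.14 SE, edgeR adjusted p = 1.05e-05). In the other direction, a cluster with a hit to subfamily 1 member 17 (Cluster-17769.0) stood at 4.38, 7.293 and 8.585 CPM at 3% sucrose and at 0 counts in every library at 8% sucrose, at least 85.4-fold lower against 3 counts per library. A second cluster of that hit (Cluster-23150.0) stood at 0.882 ± 0.231 and 1.34 ± 0.19 CPM (SD, n = 3 each) and did not pass the test. Subfamily 3 member 2 had clusters in both directions. Cluster-2051.35750 fell from 4.96 ± 0.65 to 1.22 ± 0.13 CPM (SD, n = 3 each; edgeR adjusted p = 0.000326), and Cluster-6152.0 went from 0 counts to 0.502 ± 0.144 CPM (SD, n = 3), at least 6.05-fold higher. A cluster with a hit to the germin-like protein of the ice plant *Mesembryanthemum crystallinum* (Cluster-2051.3517) went from 1.06 ± 0.35 CPM (SD, n = 3) to 0 counts, at least 13.4-fold lower.

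BURP proteins were at low level, and 2 of 7 clusters rose, none fell, 3 did not pass the test and 2 had too few counts. Of the 5 tested 40.0% rose and 0.0% fell, beside 29.1% and 25.6% of all tested clusters. The difference was not tested, and 5 clusters are few for such shares. A fall was called in 0 of the 5 tested by edgeR and by DESeq2, and 0 of them had a negative change with an unadjusted p under 0.05. The RD22 hit rose most. Cluster-7698.0 stood at 0.294, 0.235 and 0.274 CPM at 3% sucrose and at 7.688, 7.271 and 8.612 CPM at 8% sucrose. It rose 29.3-fold (log2 fold change 4.86 ± 0.21 SE, edgeR adjusted p = 5.58e-06). The second RD22 cluster (Cluster-2051.52531) had its libraries at 3% sucrose above those at 8%, at 1.43 ± 0.33 and 0.833 ± 0.108 CPM (SD, n = 3 each), and did not pass the test (edgeR adjusted p = 0.0893). BURP domain-containing protein 3 (Cluster-2051.42495) rose from 1.441, 1.489 and 1.289 CPM to 5.151, 6.752 and 7.112 CPM, 4.51-fold (log2 fold change 2.17 ± 0.21 SE, edgeR adjusted p = 0.000195). The 3 clusters of BNM2C, a Brassica protein from embryogenic microspore cultures, summed to 2.77 ± 0.16 and 2.76 ± 0.64 CPM (SD, n = 3 each).

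Clusters that share a hit may be parts, alleles or copies of 1 gene, so counts were also summed by hit. Of the 40 hits 17 fell, 11 rose, 6 did not pass the test and 6 had too few counts. These were 50.0% that fell and 32.4% that rose of those tested. Among all 13187 tested hits 39.7% fell and 39.9% rose (79.6% in either direction). Of the 34 tested hits, libraries of the media did not overlap for 19 with 3% above (55.9%) and 10 with 8% above (29.4%), beside 51.8% and 30.8% of all tested hits. The summed table has a normalization of its own, which sets its log2 fold changes 0.35 higher than those on the library sizes used for clusters. On the latter 18 of the 34 tested hits fell and 9 rose, which was near the 50.1% and 29.9% of all tested hits. The 36.4 kDa protein hit turned direction between these scalings, with a log2 fold change of 0.27 (called higher) on its own scale and -0.08 (not called) on the scale of the clusters. The hit to arabinogalactan protein 26 was called higher on the first scale alone, and that of fasciclin-like protein 7 was called lower on the second alone. Hits with clusters called in both directions were DC2.15, fasciclin-like protein 20 and germin-like subfamily 3 member 2. These are 3 of 17 hits with at least 2 tested clusters, or 17.6%, against 33.5% of all such hits.

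Levels of different members can be compared only per length, for which the authors' FPKM were used. On this scale the proline-rich protein 3 cluster led at 3% sucrose with a mean of 625 FPKM, ahead of the long DC2.15 cluster with 202 FPKM, which had more counts but is longer. At 8% sucrose the same clusters stood at 14.96 and 40.4 FPKM. The highest mean at 8% sucrose was that of fasciclin-like protein 8 at 100.3 FPKM, followed by the germin-like Cluster-2051.110407 at 85.7 FPKM and the 36.4 kDa protein (Cluster-2051.74144) at 77.1 FPKM. Of the 20 members with the highest mean FPKM among those with a mean of at least 100 counts, 14 were higher at 3% sucrose and 6 at 8% sucrose. The order of the members thus differed between the media.

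**Figure D4:**
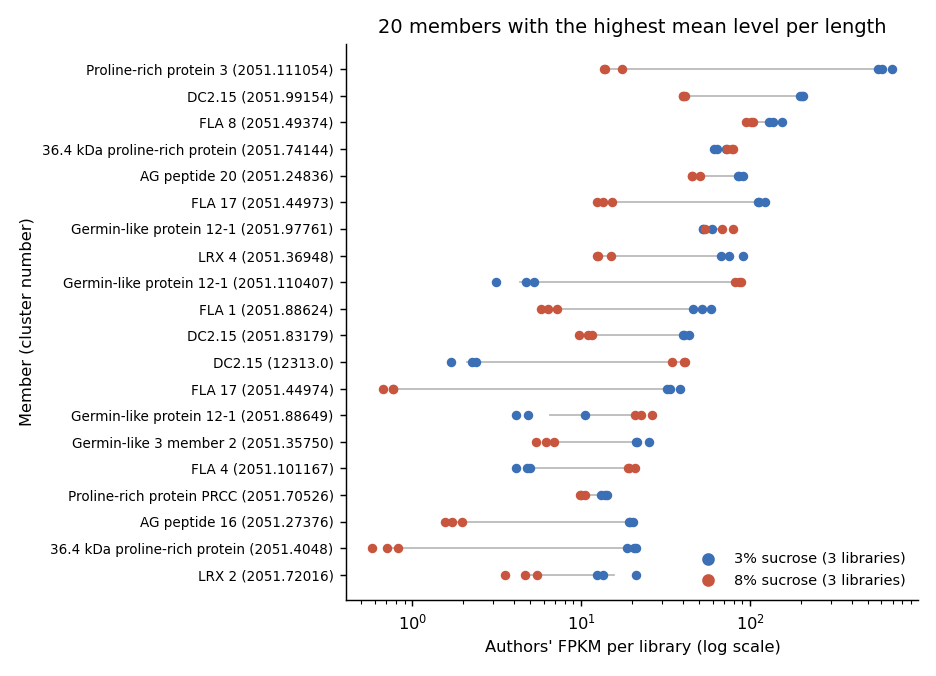
Authors' FPKM per library (log scale) of the 20 members with the highest mean FPKM among those with a mean of at least 100 counts, with 3 points per medium and a grey line between the means. Proline-rich protein 3 led at 3% sucrose with 625 FPKM and stood at 14.96 FPKM at 8% sucrose.

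Enzymes that modify these proteins were called in both directions. Prolyl 4-hydroxylases turn proline into hydroxyproline, galactosyl- and arabinosyltransferases add the first sugars, and the GPI pathway supplies the lipid anchor. Of 339 clusters of this list 69 rose, 48 fell, 121 did not pass the test and 101 had too few counts, with a median log2 fold change of 0.11 over the 238 tested. These were 29.0% that rose and 20.2% that fell of the tested clusters, beside 29.1% and 25.6% of all tested clusters, so the share that rose was near the background. Summed levels were 1619 ± 22 CPM at 3% sucrose and 1777 ± 51 CPM at 8% sucrose (SD, n = 3 each). Prolyl 4-hydroxylases had 71 clusters, of which 51 were tested, 29 rose (56.9% of those tested) and 9 fell (17.6%). Of 26 tested hydroxyproline O-galactosyltransferases 6 rose (23.1%) and 8 fell (30.8%), and of 27 tested arabinosyltransferases 8 rose (29.6%) and 7 fell (25.9%). Of 77 tested GPI anchor enzymes 15 rose (19.5%) and 11 fell (14.3%), and of 34 tested GLCAT14 glucuronosyltransferases 5 rose (14.7%) and 4 fell (11.8%). Of 23 tested enzymes of UDP-arabinose supply 6 rose (26.1%) and 9 fell (39.1%). The differences of these shares from the background were not tested. Probable prolyl 4-hydroxylase 3 (Cluster-2051.72433) stood at 16.93, 16.34 and 18.8 CPM at 3% sucrose and at 145.4, 123.7 and 117.1 CPM at 8% sucrose, and rose 7.42-fold (edgeR adjusted p = 2.95e-06). A second cluster of this hit (Cluster-2051.90199) rose 6.91-fold (edgeR adjusted p = 1.15e-06). Hydroxyproline O-galactosyltransferase HPGT3 (Cluster-2051.25698), which starts the arabinogalactan sugar chain, fell from 44.41 ± 1.40 to 10.79 ± 0.23 CPM (SD, n = 3 each; edgeR adjusted p = 1.99e-06). UDP-arabinopyranose mutase 1 (Cluster-2051.66170), which shapes the arabinose donor, fell from 46.84 ± 3.41 to 10.37 ± 0.55 CPM (SD, n = 3 each; edgeR adjusted p = 3.84e-06).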

How the data were processed

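RNA sequencing libraries were grouped by the sucrose content in their labels. Per the submitters' processing notes, Trimmomatic 0.36, Bowtie2 and RSEM were used, and the series title states a de novo assembly. Not given in the sources used here: assembler, annotation versions, differential test. The authors deposited, per the file headers, expected counts per cluster (45.4% of the values are not whole), FPKM, a log2 ratio and its q-value. FPKM served only to compare levels between members, and the log2 ratio and q-value lie behind the authors' calls. The library kit named in the labels does not mark strand.

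Expected counts were rounded, filtered with filterByExpr and tested with edgeR 4.0.16 (R 4.3.3, TMM, quasi-likelihood, no covariate) by cluster and by Swiss-Prot hit, with Benjamini-Hochberg adjustment over all features. Tested clusters held 99.29% of the counts. SE is the size of the log2 fold change over the square root of F. Tests were checked on simulated data. Family sums were compared with an exact permutation test (SciPy 1.17.1). The kit gives no molecular identifiers, so bounds cover counting error only. Pairs of replicates differed by a chi-square of 7.73 to 13.5 per cluster. Counts assigned by estimation can raise this value and no known repeat was at hand, so it does not settle whether a pair repeats 1 library. DESeq2 1.42.0 and other settings were alternatives. Figures used matplotlib 3.10.9.

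The members, the lists of enzymes and markers and the tests were chosen with earlier results of these data known. Named clusters were, per family, the 2 that rose and the 2 that fell with the smallest adjusted p and a mean of at least 100 counts, the 4 most abundant hits, and every member with a mean of at least 50 CPM. Of the enzyme list, the 2 clusters in each direction with the smallest adjusted p were named. Other members and NR-named clusters were chosen after their values were seen. No sequence was used here.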

Additional observations from a re-analysis of the deposited data

How the results depend on the processing

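With hits limited to an E-value of at most 1e-20, the number of members that rose was 10 in place of 18. The other counts by cluster and by hit stayed within 1.5 times, and each family sum kept its direction. Members by cluster numbered 18 that rose and 26 that fell with RLE size factors and with DESeq2, and 20 and 23 without the filter on low counts. Leaving out 1 library at a time gave 17 to 18 members that rose and 21 to 25 that fell, 10 to 12 hits that rose and 16 to 17 that fell, and 56 to 63 clusters of the enzyme list that rose and 41 to 50 that fell. The log2 ratio of the sums then ranged from -1.68 to -1.60 for all members, from -1.54 to -1.43 for fasciclin-like proteins, from -1.52 to -1.46 for other arabinogalactan proteins and from -2.58 to -2.31 for LRR-extensins. It ranged from -2.79 to -1.45 for extensin-1, from -2.19 to -2.13 for proline-rich proteins, from 0.83 to 1.00 for germin-like proteins and from 1.54 to 1.69 for BURP proteins. Of the 44 called members 38 were called in each of these 6 fits, and the 6 others had means of at most 83.8 counts. The hit to arabinogalactan protein 26 lost its edgeR call without replicate 2 at 3% sucrose and without replicate 1 or 2 at 8% sucrose (adjusted p = 0.0702, 0.0668 and 0.0607), and the cause was not tested. Plain library totals set log2 fold changes 0.15 higher than TMM. Same-numbered libraries were not paired, since their deviations correlated at 0.031, 0.0044 and 0.013. With the replicate number as a block, 16 members rose and 22 fell, the enzyme list had 53 and 45, the hit to arabinogalactan protein 26 had an edgeR adjusted p of 0.0577, and the sum of all members kept its log2 ratio of -1.65 (exact sign-flip p = 0.25, the smallest that 3 pairs allow). The common variation between libraries beyond counting error, as estimated by edgeR, was 41.4% and may be technical. In data simulated with each cluster's own variation, up to a cap, edgeR recovered 24 of 100 2-fold changes and 70 of 100 4-fold changes by cluster. Clusters of low level were not changed there, and far fewer clusters were changed than were called in the data. These shares therefore do not give the part of real changes that the tests found here.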

Other observations

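A further 58 clusters carried a matching name in the NR database but not in Swiss-Prot, and stayed outside the set. Of these 16 fell, 10 rose, 18 did not pass the test and 14 had too few counts. The 44 tested thus had 36.4% that fell and 22.7% that rose, beside 25.6% and 29.1% of all tested clusters. The most abundant was Cluster-2051.79406, named DC2.15-like in NR and pEARLI1-like lipid transfer protein 2 in Swiss-Prot. It fell from 1616 ± 27 to 624.9 ± 29.2 CPM (SD, n = 3 each; edgeR adjusted p = 2.33e-06). Cluster-2051.85942, an LRR-extensin in NR and a pollen allergen of the Lol p 11 kind in Swiss-Prot, stood at 1478, 1672 and 1418 CPM at 3% sucrose. At 8% sucrose it stood at 176.6, 191.3 and 174.9 CPM, 8.41-fold lower (edgeR adjusted p = 9.39e-07). Cluster-2051.10250, DC2.15-like in NR and the lipid transfer protein EARLI 1 in Swiss-Prot, fell from 96.5 ± 5.9 to 0.370 ± 0.097 CPM (SD, n = 3 each), 261-fold (edgeR adjusted p = 5.05e-07). In the other direction, Cluster-2051.100626, named extensin-like in NR and without a Swiss-Prot hit, rose from a mean of 0.459 to 7.51 CPM (edgeR adjusted p = 0.000123). No other cluster matching isoforms of that NR protein was called higher. Cluster-2051.79410 stood at 11.35 and 12.35 CPM and did not pass the test, and Cluster-2051.40896 fell from 5.21 to 2.72 CPM (edgeR adjusted p = 0.0372). Both have a heavy metal-associated protein as their Swiss-Prot hit. Cluster-2051.37573 was higher at 8% sucrose without passing the test. These clusters were chosen after their values were seen.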
